A study of Mus musculus with 10 samples.

Results

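Glycogen is the branched glucose polymer that animal cells store. Its synthesis starts from UDP-glucose, is primed by glycogenin, extended by glycogen synthase and branched by the branching enzyme. Breakdown in the cytosol is carried out by glycogen phosphorylase, which phosphorylase kinase activates, and in the lysosome by acid alpha-glucosidase. The 9 genes described here encode enzymes of these steps and were taken by symbol from the 21853 genes listed. They are Gys1 (muscle glycogen synthase), Gyg (glycogenin), Gbe1 (branching enzyme), Ugp2 (UDP-glucose pyrophosphorylase), Pygb, Pygl and Pygm (the brain, liver and muscle phosphorylases), Phkb (the beta subunit of phosphorylase kinase) and Gaa (acid alpha-glucosidase). All 9 symbols were found, Gyg under that spelling. In the mouse assembly GRCm39 they lie on chromosomes 7 (Gys1), 3 (Gyg), 16 (Gbe1), 11 (Ugp2 and Gaa), 2 (Pygb), 12 (Pygl), 19 (Pygm) and 8 (Phkb).

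RNA was sequenced from 5 lines of mouse embryonic stem cells (ESCs). Each line gave 2 libraries, which makes 10 libraries. Naïve ESCs were the wild-type line J1, and AKO, GKO and DKO were J1 lines labelled as knockouts of AMPK, of Gys1 and of both. AMPK is an energy-sensing kinase whose catalytic subunits are encoded by Prkaa1 and Prkaa2, and per the methods Prkaa1 was the one targeted, so the labels do not show that all AMPK was lost. These 4 lines were grown in serum medium with 1000 U/ml mLIF, 1 μM PD0325901 (a MEK inhibitor) and 3 μM CHIR99021, an inhibitor of GSK3, a kinase known to phosphorylate glycogen synthase. The primed ESCs (PJ1) were grown without these agents, in serum replacement with 10 ng/ml bFgf and 20 ng/ml Activin, so that pluripotent state and medium cannot be told apart. The records do not say which clones or cultures gave the 2 libraries of a line, and these may be technical replicates, so p-values measure the spread between these libraries, and a knockout cannot be told apart from a difference between clones. Levels are given as TPM, an abundance corrected for transcript length and scaled within a library, which keeps no record of the number of reads.

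The targeted genes were read first. Gys1 mRNA was present in every library, with TPM of 9.70 and 9.98 in GKO, 12.1 and 11.7 in DKO, 12.7 and 12.2 in AKO, 11.5 and 10.8 in naïve ESCs, and 13.6 and 14.3 in primed ESCs. A small insertion or deletion need not remove an mRNA, so the Gys1 level does not check the GKO and DKO labels. Prkaa1 fell from 15.5 and 16.6 TPM in naïve ESCs to 7.24 and 6.94 in AKO and 2.303 and 2.035 in DKO. It was also below naïve ESCs in the lines in which it was not targeted, at 12.16 and 11.96 TPM in GKO and 13.4 and 13.7 TPM in primed ESCs. Prkaa2 lay between 2.39 and 3.29 TPM in the 8 libraries of the J1 lines in naïve medium and at 8.30 and 9.38 TPM in primed ESCs. The guide used against Gys1 matches the first bases of exon 9 in the canonical transcript, which has 16 exons, on the plus strand of chromosome 7 in the mouse assembly GRCm39. This exon, chr7:45094056-45094115, is coding over its 60 bases. It is shown because it is the edited site, with the 3 bases of the PAM, which follow the 20 bases matched by the guide, in capitals.
Gys1 exon 9: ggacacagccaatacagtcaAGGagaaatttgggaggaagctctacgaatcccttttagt

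Of the markers of pluripotent state, all but T separated the primed libraries from the others, Zfp42 and Otx2 among them. Zfp42 was between 436.5 and 474.4 TPM in the 8 libraries grown in naïve medium and at 0.024 and 0.196 TPM in primed ESCs. Otx2 was at 53.0 and 55.9 TPM in primed ESCs and at or below 6.51 TPM elsewhere. Within naïve medium, GKO and DKO both differed from naïve ESCs in several of these markers. Esrrb was at 233.6 and 231.6 TPM in GKO and 237.7 and 241.9 in DKO against 185.7 and 173.7 in naïve ESCs, and Tbx3 at 103.4 and 97.4 TPM in GKO and 116.0 and 119.5 in DKO against 87.4 and 80.5. Klf4 was higher and Sox3 lower than in naïve ESCs in every library of both knockouts. Pou3f1, another primed marker, was at 1.55 and 1.77 TPM in GKO, 0.678 and 0.644 in DKO, and 1.07 and 1.32 in naïve ESCs. In DKO alone, Otx2 was lower, at 2.39 and 2.98 TPM against 5.71 and 6.10 TPM in naïve ESCs, and Dnmt3b was higher, at 41.0 and 41.3 TPM against 27.5 and 28.3 TPM. The primed libraries differed from each other in other markers. Fgf5 was at 10.7 and 0.447 TPM and T at 8.97 and 0.786 TPM in the first and second primed library. T, listed as a primed marker, was above both primed libraries in naïve ESCs (15.7 and 14.5 TPM) and GKO (19.1 and 17.5 TPM). In DKO, at 4.94 and 4.88 TPM, T was below naïve ESCs and lay between the first and second primed library. The 5 primitive endoderm markers summed to 7.04 TPM in the first, where Sox17 was the most abundant at 3.04 TPM, and to 0.775 TPM in the second. Among 4 trophectoderm markers, whose sum had a TPM of 42.6 and 44.1 in GKO, 23.7 and 26.2 in DKO, and 16.1 and 16.0 in naïve ESCs, Tfap2c led in GKO at 23.2 and 24.3 TPM, while Elf5 was at 0.182 TPM or less in every library. Cdx2 of this list was at 6.62 and 7.27 TPM in GKO and 6.73 and 6.86 TPM in DKO, against 2.57 and 2.66 TPM in naïve ESCs. The 6 fibroblast markers summed to 9.05 and 15.2 TPM in primed ESCs, 7.97 and 9.22 TPM in GKO, and 3.46 and 2.88 TPM in naïve ESCs. Col1a2 was at 4.18 and 4.84 TPM in primed ESCs and at or below 0.125 TPM elsewhere, Thy1 led in GKO at 7.14 and 8.48 TPM, and Dcn was listed at 0 in both lines. Alb was listed at 0 in all but 1 library, and the 4 markers of hepatocytes or visceral endoderm summed to at most 0.508 TPM. Tnnt3 and Ckm, which mark skeletal muscle, stayed at or below 0.192 TPM, although Mylpf of the same list was at 171.0 to 256.2 TPM in naïve medium and at 1.47 and 1.23 TPM in primed ESCs. Acta1, the other gene of this list, was at 1.28 and 1.48 TPM in primed ESCs and at or below 0.148 TPM elsewhere. The part of these markers in the changes below was not tested, and in bulk RNA fewer cells of a type cannot be told apart from less RNA per cell.

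Per transcript, the enzymes fell into 3 ranges. Gaa, Ugp2 and Gys1 were the most abundant, at 19.5 ± 0.969, 15.4 ± 0.143 and 11.1 ± 0.513 TPM in naïve ESCs (SD, n = 2). Phkb, Gyg, Pygb and Gbe1 followed at 6.52 ± 0.0375, 5.09 ± 0.724, 3.84 ± 0.0304 and 1.64 ± 0.0622 TPM (SD, n = 2). Pygm and Pygl remained below 1 TPM in all 10 libraries. A gene was tested where it reached 1 TPM in at least 2 libraries, which 12060 genes did. The 7 enzymes tested were each above 1 TPM in all 10 libraries, and Pygl and Pygm were not tested. Changes are differences of log2(TPM + 1), which understates the change of low genes, and were called at an adjusted p under 0.05 from limma over all genes tested.

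**Figure D1:**
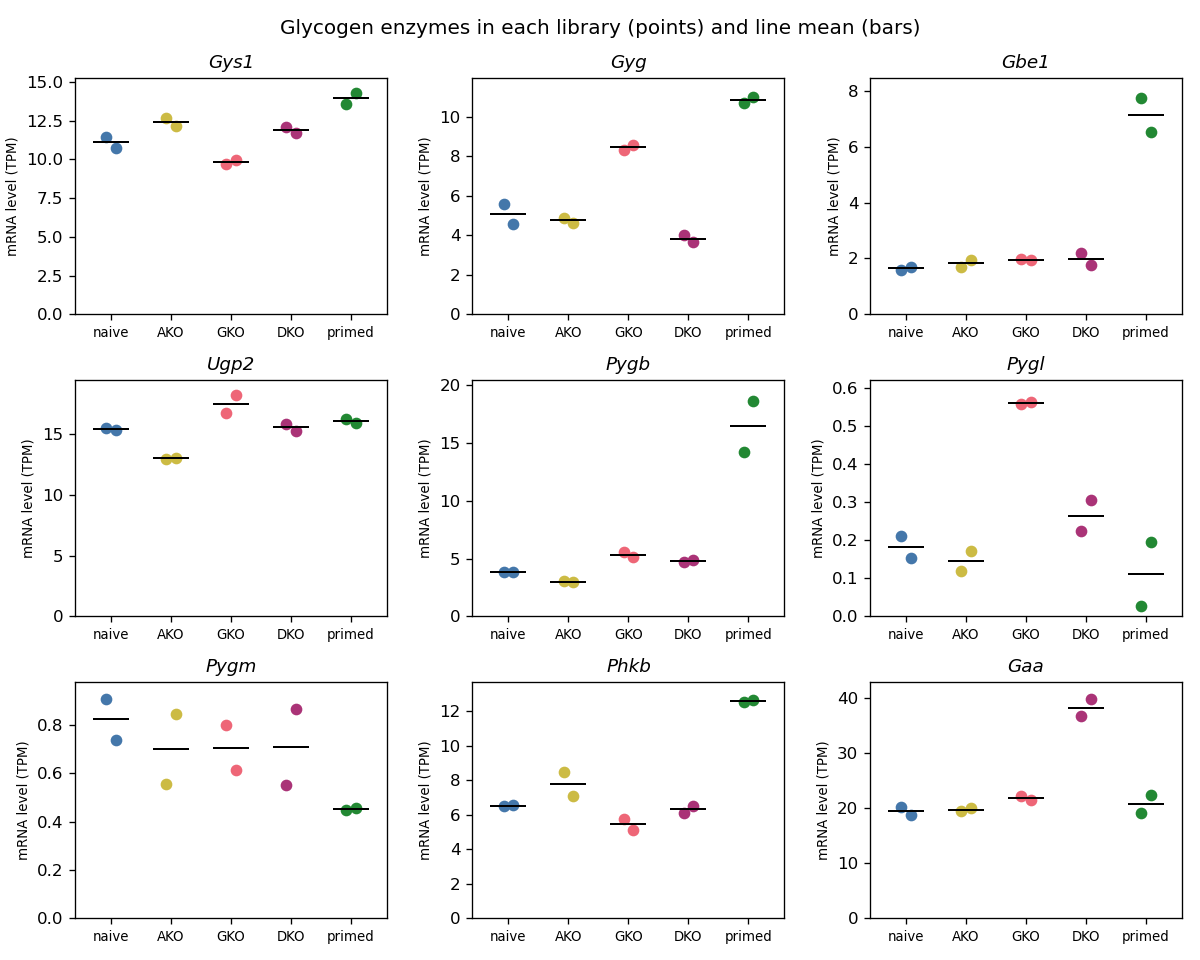
mRNA level in TPM of the 9 glycogen enzymes, 1 panel per gene, in the 2 libraries (points) of each of 5 lines, with the line mean as a bar and each vertical axis starting at 0. Gys1, Gbe1, Pygb, Gyg and Phkb are highest in primed ESCs, and Gaa is highest in DKO, at 36.8 and 39.8 TPM.

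The comparisons differed widely in how many genes passed. In primed against naïve ESCs, 5 of the 7 tested enzymes were higher and 0 lower, where 80.0% of all tested genes were called. GKO had 3 enzymes higher than naïve ESCs and 0 lower, with 51.7% of all genes called. DKO had 1 higher and 1 lower than naïve ESCs, with 46.0% called, and against AKO it had 3 higher and 2 lower, with 46.3% called. AKO had 0 enzymes called against naïve ESCs, where limma called 0.224% of genes, although 4 of the 7 had an unadjusted p under 0.05, as did 1231 of the 12060 genes. The median change of the 7 enzymes was 0.85 in primed ESCs, 0.16 in GKO, 0.09 in DKO and 0.02 in AKO, all against naïve ESCs. Over all tested genes it was -0.05, -0.01, -0.01 and -0.01 in that order. The comparisons against naïve ESCs share the naïve libraries, whereas GKO against naïve and DKO against AKO share none. Single libraries moved some counts. In GKO the count was 1 without either naïve library and 5 without either primed library, in DKO against naïve ESCs it was 1 without the first naïve or the second DKO library, and in DKO against AKO it was 3 without the first AKO or either DKO library. The number of all genes called in AKO, 27, was 1 to 3 without any 1 of the naïve, AKO, DKO or GKO libraries and 120 and 126 without the first or second primed library.

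**Figure D2:**
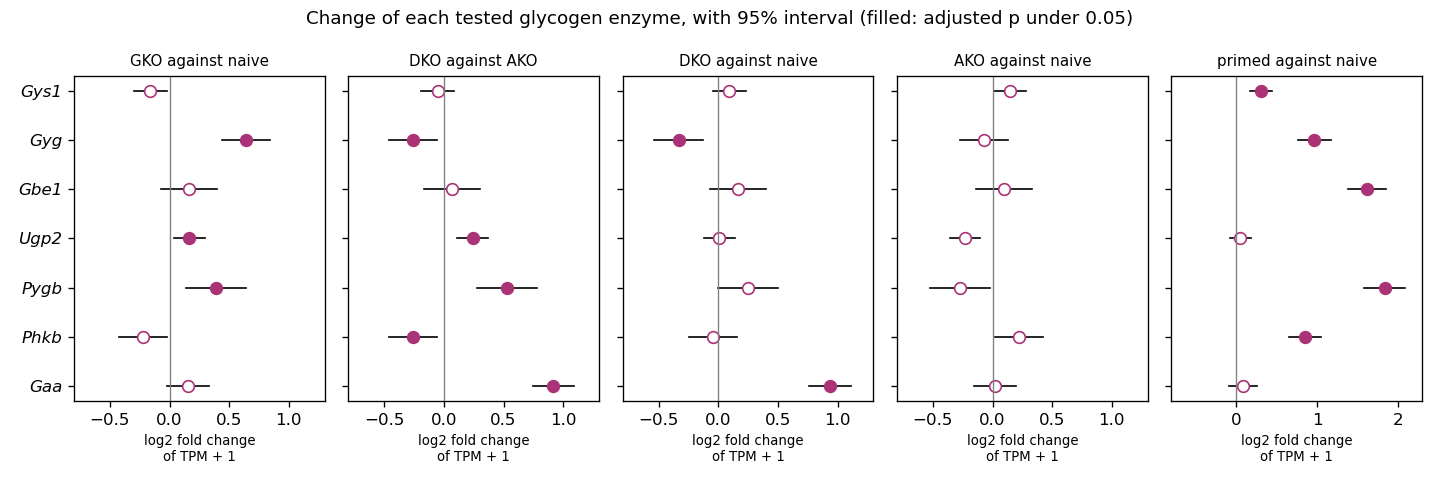
Change of the 7 tested enzymes in 5 comparisons, as the difference of log2(TPM + 1) on the horizontal axis, with 95% intervals from the limma fit as lines and filled points where the adjusted p was under 0.05. Pygb and Gbe1 have the largest changes in primed ESCs, at 1.84 and 1.62, and Gaa in DKO, at 0.94 against naïve ESCs and 0.92 against AKO.

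Glycogen synthase itself changed little. Gys1, the synthase gene expressed outside the liver, lay in the order primed, AKO, DKO, naïve and GKO, and the libraries of neighbouring lines in this order did not overlap. Only the primed level passed the test, being higher than in naïve ESCs by 0.30 (SE 0.06, adjusted p = 0.00121 from limma). In GKO the difference of -0.16 (SE 0.06, n = 2 libraries per line) lay just beyond the threshold in limma (adjusted p = 0.05002). It passed in 6 of 18 alternatives. These were the fits without the first or second primed library (-0.16 in both, adjusted p = 0.0345), with the pseudocount of 0.1, without the filter, with the filter at a mean of 5 TPM and without the intensity trend. Its adjusted p ranged from 0.0345 to 0.262 over all 18. Gys2, the liver isoform, was listed at 0 in 9 libraries and at 0.013 TPM in the first primed library. Nearly all synthase mRNA was thus that of Gys1 in each line.

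Glycogenin, the self-glucosylating protein on which a glycogen particle is begun, moved in opposite directions in the lines labelled as Gys1 knockouts. The TPM of Gyg was 8.35 and 8.60 in GKO, 4.00 and 3.64 in DKO, 4.88 and 4.65 in AKO, 5.60 and 4.58 in naïve ESCs, and 10.71 and 11.02 in primed ESCs. The GKO and primed libraries were all above the others, the DKO libraries were all below, and naïve ESCs overlapped AKO. Against naïve ESCs, Gyg was higher in primed ESCs by 0.97 (SE 0.09, adjusted p = 7.21e-06) and in GKO by 0.64 (SE 0.09, adjusted p = 0.000389). It fell by 0.33 in DKO against naïve ESCs (SE 0.09, adjusted p = 0.0143) and by 0.26 in DKO against AKO (SE 0.09, adjusted p = 0.0405). The change with the Gys1 knockout differed between cells without and with the Prkaa1 knockout, by 0.90 (SE 0.13, adjusted p = 0.00136 for the interaction in limma), a comparison in which 2 of the 7 enzymes and 25.8% of all genes were called. The count of all genes in it, 3116, was 1944 and 1993 without the first or second naïve library, 2071 without the first AKO or first GKO library, and 2062 without the second DKO library. The falls were less secure than the rises. Without the first naïve library the fall against naïve ESCs was -0.21 (adjusted p = 0.114), and without the second DKO library it was -0.28 (adjusted p = 0.0892), with a range from 0.00752 to 0.114 over its alternatives. Against AKO, the fall missed the threshold without any 1 of the AKO, DKO or GKO libraries, at -0.20 to -0.31, and without the filter on low values (adjusted p = 0.0672, with 0.0166 to 0.193 over its alternatives).

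Gbe1 and Ugp2, which act at other steps of synthesis, differed in separate comparisons. The branching enzyme gene Gbe1 was at 7.73 and 6.51 TPM in primed ESCs and between 1.60 and 2.19 TPM in the 8 libraries in naïve medium. Its primed level was higher by 1.62 (SE 0.10, adjusted p = 6.04e-07), and no other comparison of Gbe1 passed the test. GKO and DKO, at 1.96 ± 0.0233 and 1.97 ± 0.311 TPM (SD, n = 2), overlapped. Ugp2, which makes the UDP-glucose used by synthase, lay between 12.9 and 18.2 TPM. It was lowest in AKO, at 12.9 and 13.1 TPM, and highest in GKO, at 16.7 and 18.2 TPM, with naïve ESCs at 15.5 and 15.3 TPM overlapping DKO at 15.8 and 15.3 TPM, and primed ESCs at 16.2 and 15.9 TPM. Ugp2 rose in DKO against AKO by 0.24 (SE 0.06, adjusted p = 0.00754) and in GKO against naïve ESCs by 0.17 (SE 0.06, adjusted p = 0.0346). The GKO rise missed the threshold without either naïve library (0.18 and 0.16), either AKO library (0.17), or the second GKO library (0.11, adjusted p = 0.222), and with the replicate number as a block (adjusted p = 0.0502). Its adjusted p ranged from 0.0163 to 0.222. In AKO the difference of -0.23 from naïve ESCs did not pass (adjusted p = 0.178), nor did that of 0.05 in primed ESCs (adjusted p = 0.415).

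Phosphorylase mRNA came mostly from the brain isoform gene in every line. The TPM of Pygb was 14.2 and 18.7 in primed ESCs, 5.55 and 5.11 in GKO, 4.67 and 4.87 in DKO, 3.86 and 3.82 in naïve ESCs, and 3.03 and 2.96 in AKO. The lines were thus ordered primed, GKO, DKO, naïve and AKO, with no overlap between neighbours. Pygb rose by 1.84 in primed ESCs (SE 0.11, adjusted p = 4.09e-07), by 0.53 in DKO against AKO (SE 0.11, adjusted p = 0.00427) and by 0.39 in GKO against naïve ESCs (SE 0.11, adjusted p = 0.0171). The GKO rise missed the threshold without the first naïve library (0.39, adjusted p = 0.0666), the second naïve library (0.38, adjusted p = 0.0733) or the first GKO library (0.34, adjusted p = 0.0986), with a range from 0.0012 to 0.0986 over its alternatives. In DKO against naïve ESCs the difference of 0.25 did not pass (adjusted p = 0.0917), but did without either primed library (adjusted p = 0.0110 and 0.0112) and with only the DKO and naïve libraries in the fit (adjusted p = 0.0235, with 0.0110 to 0.259 over its alternatives). The rises with the Gys1 knockout in cells without and with the Prkaa1 knockout did not differ detectably (-0.14, SE 0.16, interval -0.50 to 0.21, adjusted p = 0.543).

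The liver and muscle isoforms were minor. Pygl was at 0.559 and 0.564 TPM in GKO, against 0.224 and 0.305 in DKO, 0.212 and 0.154 in naïve ESCs, 0.118 and 0.172 in AKO, and 0.026 and 0.196 in primed ESCs. Both GKO libraries were above all others. When the filter on low values was lifted, the Pygl difference between GKO and naïve ESCs was 0.40 (SE 0.07, adjusted p = 0.00466 from limma). Pygm was between 0.551 and 0.907 TPM in naïve medium, where the lines overlapped, and at 0.447 and 0.456 TPM in primed ESCs, below every other library. Without the filter its primed difference was -0.33 (SE 0.12, adjusted p = 0.0417). Pygm lies on chromosome 19, where the median tested gene changed by -0.40 in GKO, -0.27 in DKO and -0.46 in primed ESCs.

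Summed over the 3 genes, phosphorylase mRNA had a TPM of 17.0 ± 3.28 in primed ESCs, 6.60 ± 0.438 in GKO, 5.74 ± 0.419 in DKO, 4.84 ± 0.190 in naïve ESCs and 3.84 ± 0.193 in AKO (SD, n = 2 each). Pygb made up 96.7% ± 0.106 of this sum in primed ESCs and 78.1% ± 5.20 to 83.2% ± 3.66 in the other lines. The Pygl share was 8.53% ± 0.620 in GKO and 3.76% ± 0.699 in naïve ESCs. Gys1 mRNA per phosphorylase mRNA was highest in AKO, at 3.24 ± 0.256, and stood at 2.29 ± 0.0163 in naïve ESCs, 2.08 ± 0.200 in DKO, 1.49 ± 0.129 in GKO and 0.832 ± 0.132 in primed ESCs. An exact two-sided test of such a value cannot go below p = 0.333 with 2 libraries on each side, and these sums and shares are given as descriptions.

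**Figure D3:**
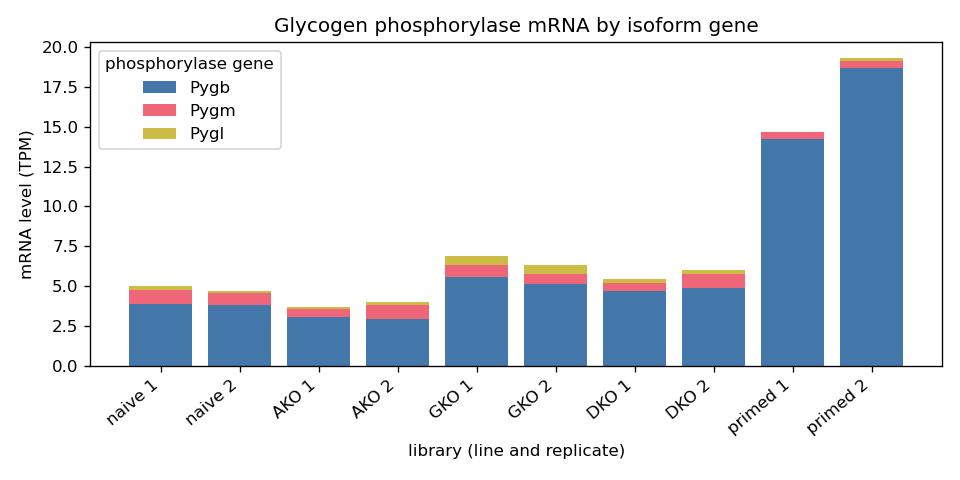
mRNA level in TPM of Pygb, Pygm and Pygl, stacked in 1 bar per library, with the 2 libraries of each line side by side. The bars reach 14.7 and 19.3 TPM in primed ESCs and 3.70 to 6.91 TPM in the other 8 libraries, and Pygb is the largest segment in each.

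Phkb, a regulatory subunit of the kinase that switches phosphorylase on, was at 12.5 and 12.6 TPM in primed ESCs, 8.50 and 7.09 in AKO, 6.49 and 6.55 in naïve ESCs, 6.11 and 6.53 in DKO, and 5.76 and 5.15 in GKO. DKO overlapped naïve ESCs and the other neighbours in this order did not overlap. It rose in primed ESCs by 0.85 (SE 0.09, adjusted p = 1.67e-05). In DKO it fell by 0.26 against AKO (SE 0.09, adjusted p = 0.0383), a call that was lost without the first AKO library (-0.14, adjusted p = 0.254), either DKO library (-0.22 and -0.30) or either naïve library (-0.26). It was lost as well without the filter (adjusted p = 0.0625) and with only the DKO and AKO libraries in the fit (adjusted p = 0.0686), with 0.0155 to 0.254 over its alternatives. The GKO difference of -0.22 from naïve ESCs had an adjusted p of 0.0622, which fell to 0.0379 and 0.0376 without the first or second AKO library (-0.22 in both) and to 0.0451 with only the GKO and naïve libraries, and rose to 0.292 without the second GKO library. The median tested gene on chromosome 8, which holds Phkb, changed by 0.08 in GKO.

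Gaa, the lysosomal enzyme that degrades glycogen outside the phosphorylase route, stood apart in DKO. It was at 36.8 and 39.8 TPM in DKO, against 22.3 and 21.5 in GKO, 19.2 and 22.5 in primed ESCs, 19.6 and 20.0 in AKO, and 20.2 and 18.8 in naïve ESCs. Both DKO libraries were above all others, and among the other 4 lines every pair of neighbours in the order of means overlapped. Gaa rose in DKO by 0.94 against naïve ESCs (SE 0.08, adjusted p = 3.45e-05) and by 0.92 against AKO (SE 0.08, adjusted p = 3.55e-05). In GKO its difference from naïve ESCs was 0.16 (SE 0.08, adjusted p = 0.117), which passed without either primed library (0.16 in both, adjusted p = 0.0325 and 0.0328) and with only the GKO and naïve libraries (adjusted p = 0.0427), and ranged from 0.0325 to 0.410 over its alternatives. The change with the Gys1 knockout was smaller in cells without the Prkaa1 knockout than in cells with it, by -0.76 (SE 0.11, adjusted p = 0.00153 for the interaction in limma). In primed ESCs the difference of 0.09 did not pass, but without the first primed library it was 0.20 (adjusted p = 0.0229), and without the second it was -0.02 (adjusted p = 0.748, the other end of the range over its alternatives). Of the 965 other tested genes on chromosome 11, 98.3% had a lower change than Gaa in DKO against naïve ESCs, and their median was -0.02. In primed ESCs the median on this chromosome, which also holds Ugp2, was 0.30, above the differences of Gaa (0.09) and Ugp2 (0.05).

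The DNA before the Gaa and Gyg starts is given since these were the enzymes with an interaction. In the 250 bases before the start of the canonical GENCODE transcript in GRCm39, the letters CACGTG, an E-box that reads the same on both strands, were found for 1 of the 9 enzymes, Gaa, and for 6.26% of 21751 protein-coding genes. The RefSeq windows of the same length on GRCm38.p6, matched for all 9 symbols, also gave 1 enzyme, Gaa, with 6.02% of all windows. GGGCGG, searched on both strands, was found for 3 enzymes and 36.3% of genes, and TATAAA for 0 enzymes and 11.9% of genes, in the GRCm39 windows. In the RefSeq windows GGGCGG was found for 5 enzymes and 32.7% of windows, so its count depended on the windows used, and TATAAA for 0 enzymes and 12.4% of windows. A match is a description of the letters and not of a bound site. For Gyg the sources place the start differently. The last bases of its GRCm39 window are the first of its RefSeq window, which held 1 GGGCGG where the GRCm39 window held 0. The Gaa window is chr11:119158463-119158712 on the plus strand and the Gyg window is chr3:20209482-20209731 on the minus strand of GRCm39, each written on the strand of its gene with CACGTG in capitals.
Gaa: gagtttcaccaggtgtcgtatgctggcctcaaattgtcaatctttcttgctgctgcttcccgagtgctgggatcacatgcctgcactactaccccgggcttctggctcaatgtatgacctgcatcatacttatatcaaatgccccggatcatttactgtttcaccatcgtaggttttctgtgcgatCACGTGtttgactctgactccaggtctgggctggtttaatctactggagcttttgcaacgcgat
Gyg: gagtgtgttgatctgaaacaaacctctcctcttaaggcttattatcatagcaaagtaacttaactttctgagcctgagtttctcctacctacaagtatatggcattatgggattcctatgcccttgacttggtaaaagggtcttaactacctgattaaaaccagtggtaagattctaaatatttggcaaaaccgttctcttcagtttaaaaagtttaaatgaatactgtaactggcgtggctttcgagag

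The wider pathway was read from a list of 15 further glycogen enzymes and kinases, of which 12 were tested. In primed ESCs 7 of these, Stbd1 included, were higher and 4 lower than in naïve ESCs, where 37.4% of all tested genes were higher and 42.5% lower. Pgm1, a phosphoglucomutase that interconverts glucose 1-phosphate and glucose 6-phosphate, was at 43.8 and 56.4 TPM in primed ESCs and at 2.20 and 2.23 TPM in naïve ESCs, a rise of 3.98 (SE 0.12, adjusted p = 4.79e-09). The names Pgm1 and Pgm2 have been exchanged between mouse annotations, and the tables give symbols only. Pgm2 was between 11.9 and 15.1 TPM in all 10 libraries, and its primed difference of 0.06 did not pass (adjusted p = 0.470), but was 0.17 without the first primed library (adjusted p = 0.0451) and -0.04 without the second. Stbd1, which binds glycogen and links it to lysosomal breakdown, was at 3.72 and 6.34 TPM in primed ESCs and at or below 0.12 TPM elsewhere, a difference of 2.44 from naïve ESCs. It passed the filter on low values through its primed libraries alone, so its call in primed ESCs adds nothing to these levels.

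The knockout lines had fewer of the 12 genes called, as they had fewer of all genes called. In GKO 4 were higher than in naïve ESCs and 0 lower (51.7% of all genes called), and in DKO 2 were higher and 3 lower (46.0% called). In DKO against AKO 2 were higher and 2 lower (46.3% called). In AKO limma called 0 of them (0.224% of all genes called), with 3 at an unadjusted p under 0.05. Pgm1 was at 4.54 and 4.70 TPM in GKO, a rise of 0.81 (SE 0.12, adjusted p = 0.000589), and at 2.64 and 2.54 TPM in DKO, and its change with the Gys1 knockout differed between cells without and with the Prkaa1 knockout by 0.95 (SE 0.17, adjusted p = 0.00451). G6pc3, a widely expressed glucose-6-phosphatase, was at 16.0 and 16.1 TPM in GKO, 8.98 and 10.5 TPM in DKO, 13.3 and 13.1 TPM in naïve ESCs, and 16.0 and 17.2 TPM in AKO, and was highest in primed ESCs, at 39.3 and 43.2 TPM. It fell by 0.41 in DKO against naïve ESCs (SE 0.08, adjusted p = 0.00278) and by 0.71 against AKO (SE 0.08, adjusted p = 0.000137). Its rise of 0.26 in GKO (SE 0.08, adjusted p = 0.0199) was lost without any 1 of the naïve or GKO libraries, at 0.26 to 0.27. The interaction for G6pc3 was 0.98 (SE 0.11, adjusted p = 0.000519). Phka1, the muscle alpha subunit of phosphorylase kinase, fell in DKO by 0.46 against naïve ESCs (SE 0.07, adjusted p = 0.00117) and by 0.42 against AKO (SE 0.07, adjusted p = 0.00181), from 3.85 and 3.73 TPM in naïve ESCs to 2.44 and 2.52 TPM. Phka1 was lowest in primed ESCs, at 1.83 and 2.05 TPM, and above naïve ESCs in GKO, at 4.79 and 4.46 TPM. Its interaction was 0.65 (SE 0.11, adjusted p = 0.00275). The GKO difference of 0.23 (SE 0.07, adjusted p = 0.0288) missed the threshold without either naïve library (0.25 and 0.21) or either GKO library (0.19 and 0.27) and under quantile normalization (0.17).

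Of 9 genes for glycogen-targeting phosphatase subunits, laforin and malin, 3 were tested. Nhlrc1, which encodes malin, the ubiquitin ligase that acts with laforin on glycogen, was at 0.519 and 0.628 TPM in GKO, 1.33 and 1.34 in DKO, 2.36 and 2.46 in AKO, 2.648 and 2.696 in naïve ESCs, and was listed at 0 in both primed libraries. Against naïve ESCs it fell by 1.88 in primed ESCs (SE 0.07, adjusted p = 2.297e-08). The GKO level fell by 1.22 (SE 0.07, adjusted p = 5.13e-06) and the DKO level fell by 0.65 (SE 0.07, adjusted p = 0.000156). The fall in DKO against AKO was smaller than that in GKO against naïve ESCs, by -0.68 for the interaction (SE 0.10, adjusted p = 0.00199). Epm2a, the laforin gene, did not reach 1 TPM in any library.

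The enzymes did not share 1 pattern over the lines. Gbe1 and Pygb had a Pearson r of 0.94 over the 10 libraries and 0.39 over the 8 in naïve medium, so that most of the likeness came from the primed libraries. Ugp2 and Phkb had an r of -0.94 over those 8 libraries, where Pygb and Ugp2 had one of 0.89. Since the 10 libraries fall into 5 lines, these values are descriptions. Among all tested genes, those with the highest r over the 10 libraries were Camta2 (0.97) and Ahr (0.96) for Gys1, Srxn1 and Adcy1 (both 0.99) for Gyg, and Epha7 and Clvs2 (both above 0.99) for Gbe1. They were Ubac2 (0.92) and Tubb3 (0.91) for Ugp2, Per3 and Ggps1 (both 0.99) for Pygb, Dlk1 and Gng3 (both 0.98) for Phkb, and Rpe and Tbxa2r (both 0.98) for Gaa. Of these, Clvs2, Per3 and Adcy1 had a line mean above 1 TPM in primed ESCs alone (3.11, 1.88 and 1.37 TPM). Tbxa2r had one in DKO alone (1.33 TPM). Genes this low can pass the filter through 1 line, so their r adds nothing to these levels. Srxn1, like Gyg, was higher in GKO and primed ESCs, at 11.4 and 14.8 TPM, than in naïve ESCs and DKO, at 7.37 and 5.73 TPM. Rpe, like Gaa, was highest in DKO, at 44.1 TPM against 22.3 TPM in naïve ESCs.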

How the data were processed

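Bulk RNA-seq of 10 libraries, 2 for each of 5 lines, was used. Per the labels and methods, the authors trimmed reads with Trim Galore 0.6.6, aligned them with STAR 2.7.9a (the methods text names another release) and estimated expression with RSEM 1.3.3. They deposited TPM per protein-coding gene. The methods name the build GRCm39, and the processing notes name GRCm38 and GRCh38. The labels name an Illumina kit and sequencer and the methods those of MGI. TPM keeps no depth, so depth is unknown and no counting interval is given. Each library summed to 500161.6 to 578951.6 TPM. The sums differed by line, at 565208.8 to 578951.6 TPM in naïve ESCs and AKO and 531062.1 and 559116.8 TPM in DKO. They were 517712.1 and 531306.4 TPM in GKO and 512120.4 and 500161.6 TPM in primed ESCs. The main fit did not rescale them.

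From the deposited TPM, genes that reached 1 TPM in 2 or more libraries (12060) were kept. Their log2(TPM + 1) was modelled jointly for all lines by limma 3.58.1 (R 4.3.3), with an intensity trend and Benjamini-Hochberg adjustment per comparison (threshold 0.05). Each SE thus rests on a spread shared by all lines, primed ESCs included. The median absolute log2 difference between the libraries of a line was 0.127 in primed ESCs and 0.0555 to 0.0704 in the other lines. The interaction is GKO minus naïve less DKO minus AKO. The procedure was tested on simulated data. Of other pathway genes, those named are Pgm1, Pgm2, Gys2 and the 3 largest called changes per comparison, and 1 further gene is not reported here (other Phka1 changes were added after their values were seen); for likeness, the 2 genes with the highest r are named. Chromosomes, found for 96.6% of tested genes, and sequences are from GRCm39 with GENCODE, and the deposited tables hold no coordinates. Members and lists were chosen with earlier results of these data known. Alternatives were each library left out, only the libraries compared, a replicate block, a pseudocount of 0.1, the trend removed, scaling by median ratios or by quantiles, and the filter lifted or set to a mean TPM of 5.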

Additional observations from a re-analysis of the deposited data

Results flagged for a closer look

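For 2 of the 7 tested enzymes, the change with the Gys1 knockout differed between cells without and with the Prkaa1 knockout. For Gyg the change in GKO against naïve ESCs exceeded that in DKO against AKO by 0.90 (0.64 and -0.26, limma interaction adjusted p = 0.00136, with 0.00105 to 0.00851 over its alternatives). For Gaa the difference was -0.76 (0.16 and 0.92, adjusted p = 0.00153, with 0.000265 to 0.0098 over its alternatives). Over all genes, 3116 of 12060 had such a difference. AKO and DKO also differed in Prkaa1 mRNA, with a difference of -1.35 in DKO against AKO (adjusted p = 3.385e-06 from limma). Each line had 2 libraries, and clones and genotypes cannot be told apart.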

How the results depend on the processing

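Of the 17 changes of an enzyme called in a comparison, 12 were called under every alternative run and 0 changed sign. The calls that were lost are those of Ugp2 and Pygb in GKO, Gyg in DKO, and Gyg and Phkb in DKO against AKO. Scaling by quantiles or median ratios moved the median change of all genes by less than 0.1 in each comparison. A single enzyme could move further. Under quantile normalization Gbe1 went from 0.16 to 0.0068 in GKO against naïve ESCs, called in neither fit, and from 1.62 to 1.39 in primed ESCs, called in both. Depth is unknown and sets no limit that could be computed here, and with a library left out the remaining library of its line is assumed to vary like the other lines.

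The number of enzymes called in GKO (3) was 5 without the filter, which lets all 9 enzymes be tested and adds Pygl and Gys1, and 5 with only the libraries compared, and 1 to 5 with a library left out. In DKO (2) it was 1 to 3 with a library left out. In DKO against AKO (5) it was 3 without the filter, of 9 tested, and 3 to 5 with a library left out. Genes called in AKO (27) were 13 with a pseudocount of 0.1, 17 with the filter at a mean of 5 TPM, 0 with only the libraries compared, and 1 to 126 with a library left out. For the interaction (3116) the count was 1944 to 4500 with a library left out. The causes were not tested.

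Signs turned for differences that had not been called, and these ranges are over the fits that leave out 1 library. In DKO against naïve ESCs, Ugp2 was -0.013371 to 0.031101 and Phkb -0.081985 to 0.0018302, both turning without the first DKO library. In AKO, Gyg was -0.19547 to 0.047806, turning without the first naïve library, and Gaa -0.030075 to 0.066326, turning without the second. In primed ESCs, Gaa was -0.023901 to 0.19562 and Pgm2 -0.043883 to 0.16859, both turning without the second primed library. Gbe1 in DKO against AKO was -0.037881 to 0.17632, turning without the first DKO library, and -0.034027 under quantile normalization. The Gbe1 interaction was -0.01181 to 0.20239, turning without the second DKO library. The Phkb interaction was -0.078024 to 0.15493, turning without the first AKO, DKO or GKO library. Gbe1 was not fitted with the filter at a mean of 5 TPM, which it did not pass. The same alternatives were applied to the other pathway genes after seeing the data.

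Replicate numbers are shared between lines, but the records do not say that they pair the libraries, and same-numbered deviations correlated between -0.128 and 0.078. With the replicate number as a block, the genes called were 6046 in GKO, 5382 in DKO, 8 in AKO, 9573 in primed ESCs, 5409 in DKO against AKO and 2875 for the interaction, and the enzymes called in GKO were 2. With the DKO numbers crossed, an alternative added after seeing the data because naïve and DKO had a correlation of -0.116, 5477 genes were called in DKO.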
